A study of Danio rerio with 6 samples.

Results

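Stem and progenitor transcription factors were followed in the kidney marrow of adult zebrafish labelled grna-/-, with an altered granulin gene on both chromosomes. The group held 10 genes, taken by symbol from a table of 15292 genes: runx1, myb, gata2a, gata2b, gfi1aa, fli1a, erg, ets1, ikzf1 and meis1a. All 10 had a row, and 8 passed the expression filter of a mean of at least 1 TPM (a level per gene length, with the same total in every library) over 6 libraries. The other two, gfi1aa and meis1a, lay below it and were not tested. Messenger RNA came from 3 grna-/- adults and 3 of their grna+/+ siblings, 1 whole-marrow suspension per library, with no cell type sorted. grna encodes a zebrafish granulin, a secreted and lysosomal protein, and neither the altered part of the gene nor the line or sex of the fish is labelled. A whole marrow holds many cell types, so fewer cells of a type and less RNA per cell cannot be told apart here.

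In vertebrates, blood stem cells arise from specialised endothelium and later reside in the marrow, which in fish lies in the kidney. A small set of DNA-binding proteins directs this: RUNX1 with its partner CBFB, MYB, GATA2, the ETS proteins FLI1, ERG and ETS1, the repressor GFI1, the zinc finger protein Ikaros (IKZF1) and the homeodomain protein MEIS1. Several of them bind together on the same enhancers with TAL1, LMO2 and LDB1. Most are not confined to stem cells: ETS proteins are also used in vessels, thrombocytes and lymphocytes, and Ikaros in lymphocytes.

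Reads counted per library numbered between 11080875 and 14075134. grna, the check of the labels, averaged 70.4 ± 4.59 TPM in grna-/-, against 144 ± 8.40 TPM in grna+/+ fish (SD, n = 3 each), with no overlap of the genotypes. Of 10750 genes tested, 1.15% were called by limma (Benjamini-Hochberg adjusted p under 0.05 over all genes), 0.66% higher and 0.493% lower in grna-/-. The 3 values of one genotype lay wholly above those of the other for 14% of tested genes and wholly below for 10.6%. Of the 10750 genes tested, 6177 had a log2 fold change above 0. Among marker lists of other marrow cells, 4 of 13 erythroid genes tested rose. None of 9 neutrophil genes was called, although all 9 had a log2 fold change below 0. That number was 8 with quantile normalization, without grna-/- replicate 2 and without grna+/+ replicate 1. These and other marker lists are given below beside the genes they are set against.

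One of the 8 genes tested, ets1, was called, and it fell in grna-/- fish. The count of 1 of 8 stands against 1.15% of all genes called. No gene of the group rose. The 8 log2 fold changes had a median of -0.08, against 0.07 for all genes tested, with 2 above 0 and 6 below. Leaving out grna-/- replicate 2 moved that median to 0.002 and leaving out grna+/+ replicate 1 moved it to 0.05, so its sign depended on a single fish. The genotypes did not overlap for ets1, fli1a and gata2b, each lower in grna-/-, and for no gene of the group that was higher, beside the 10.6% and 14% of all genes.

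**Figure D1:**
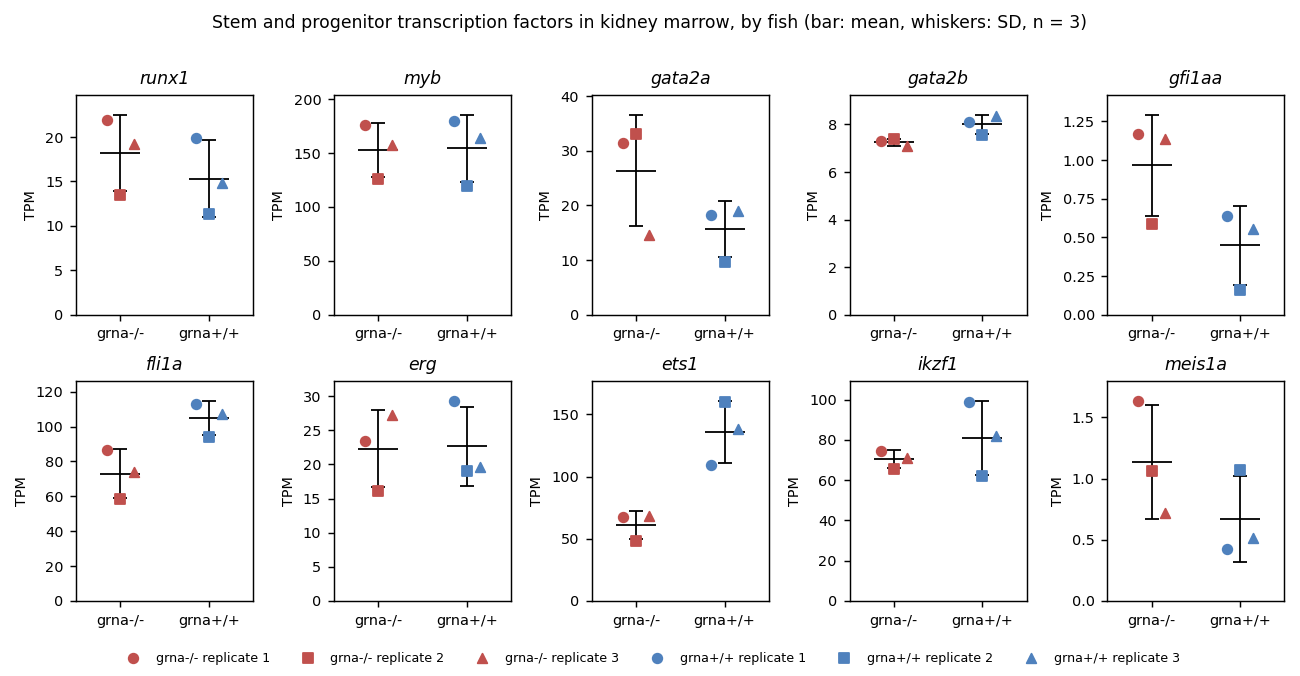
TPM of the 10 genes in each fish, with grna-/- (red) left of grna+/+ (blue); symbols mark the replicate number, the bar is the mean and the whiskers the SD (n = 3). ets1 sits between 48.0 and 68.0 TPM in grna-/- and between 109.7 and 159.6 TPM in grna+/+ fish.

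ETS1 is a founding member of the ETS family and is used in mammals by lymphoid and endothelial cells. ets1 was at 67.6, 48.0 and 68.0 TPM in the 3 grna-/- fish in replicate order, against 109.7, 159.6 and 137.9 TPM in the grna+/+ fish. Every grna-/- fish lay below every grna+/+ fish, and the highest grna-/- value was well under the lowest grna+/+ value. The mean was 61.2 ± 11.4 TPM in grna-/-, against 136 ± 25.0 TPM in grna+/+ (SD, n = 3 each), so grna-/- stood at 45.1% of grna+/+. The limma log2 fold change, on the log2(TPM + 1) scale, was -1.14 (SE 0.20, 95% interval -1.59 to -0.68, adjusted p = 0.0457). As recovered from the TPM steps, these levels rest on 586, 532 and 651 reads in grna-/- and 1128, 1456 and 1441 reads in grna+/+, or on a common multiple of these numbers. The read numbers of gata2b, gfi1aa and meis1a below carry the same limit.

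The call of ets1 lay close to the threshold and was lost under 10 of 16 other settings, while its direction held in all 16, with log2 fold changes of -1.28 to -0.85. Leaving out grna-/- replicate 1, 2 or 3 gave a limma adjusted p of 0.125, 0.156 or 0.0935, and leaving out grna+/+ replicate 2 or 3 gave 0.0791 or 0.16. With grna+/+ replicate 1 left out, it stood at 0.0403. With the replicate number as a block it was 0.0409, in a fit that called 2.52% of all genes. The unadjusted limma p of ets1 was at most 0.00238 over these settings.

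**Figure D2:**
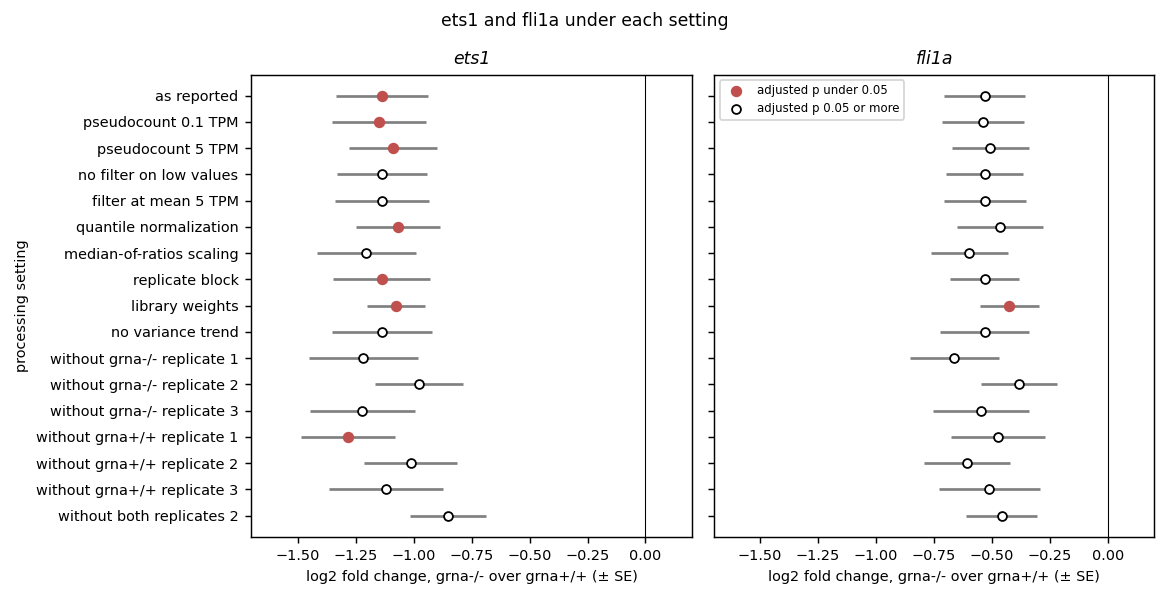
Log2 fold changes (grna-/- over grna+/+, ± SE, horizontal axis) of ets1 and fli1a under the reported setting and 16 others; filled red points have a limma adjusted p under 0.05. ets1 stays between -1.28 and -0.85 and fli1a between -0.66 and -0.38, so that the points differ more in the call than in the size.

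FLI1 is an ETS factor of endothelium, thrombocytes and blood stem cells. fli1a was at 86.7, 58.4 and 73.7 TPM in grna-/- replicates 1 to 3, against 113, 94.0 and 107 TPM in grna+/+ replicates 1 to 3. The genotypes did not overlap, and the gap between grna-/- replicate 1 and grna+/+ replicate 2 was small beside the spread within a genotype. fli1a averaged 72.9 ± 14.1 TPM in grna-/-, against 105 ± 9.78 TPM in grna+/+ (SD, n = 3 each). It did not pass in limma (log2 fold change -0.53, SE 0.17, 95% interval -0.93 to -0.13, adjusted p = 0.197). It was called only when limma weighted the libraries (adjusted p = 0.0441), a setting under which 22.8% of all genes were called.

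ERG, the closest relative of FLI1, is needed in mice to maintain blood stem cells and is also an endothelial factor. erg was at 23.5, 16.1 and 27.3 TPM in grna-/- replicates 1 to 3, against 29.3, 19.0 and 19.6 TPM in grna+/+ replicates 1 to 3. The 2 sets of values overlapped widely. erg averaged 22.3 ± 5.66 TPM in grna-/-, against 22.6 ± 5.76 TPM in grna+/+ (SD, n = 3 each), and the limma log2 fold change was -0.03 (95% interval -0.59 to 0.54, adjusted p = 0.962). The interval still allows a change of about the size seen for fli1a in either direction.

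The ETS genes were set against each other within each fish, which takes out a change shared by both genes of a pair. The log2 ratio of fli1a to erg was 1.84, 1.80 and 1.40 in the grna-/- fish, against 1.91, 2.25 and 2.39 in the grna+/+ fish. It was lower in all grna-/- fish, by 0.51 on average, and an exact two-sided permutation test gave p = 0.1, the smallest possible with 3 against 3 fish. The log2 ratio of ets1 to ets2, its nearest family relative, was -1.07, -1.47 and -1.04 in grna-/- and -0.61, -0.66 and -0.50 in grna+/+. The grna-/- ratios again lay wholly below, with an exact p of 0.1. The ratios of ets1 to fli1a and to erg also did not overlap, with differences of -0.61 and -1.11 and an exact p of 0.1 for each. The 3 ratios with ets1 were chosen after its values were seen, and over the 7 ratios computed the Benjamini-Hochberg adjusted p of these 4 was 0.175, so none passed.

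**Figure D3:**
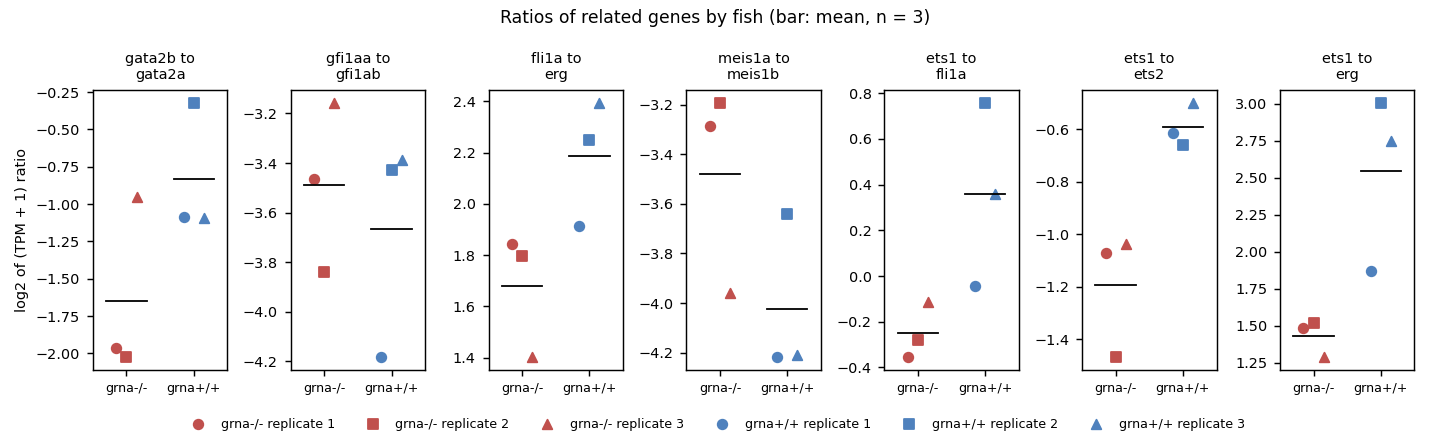
Log2 ratios of (TPM + 1) between related genes in each fish (vertical axis, own scale in each panel), grna-/- left of grna+/+; bars are means of 3 fish and symbols mark the replicate number. The fli1a to erg ratio and the 3 ratios with ets1 do not overlap between genotypes, while the ratios within the gata2, gfi1a and meis1 pairs do.

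Among the other ETS genes of a list of family relatives, ets2 averaged 140 ± 4.40 TPM in grna-/-, against 205 ± 43.0 TPM in grna+/+ (SD, n = 3 each), without overlap and without a call (limma log2 fold change -0.53, adjusted p = 0.175). elf2a had the opposite sign, at 27.8 ± 0.726 TPM in grna-/-, against 17.4 ± 5.99 TPM in grna+/+ (log2 fold change 0.70, adjusted p = 0.218), also without overlap. fli1b, the second zebrafish Fli1 gene, averaged 82.4 ± 12.01 TPM in grna-/-, against 67.0 ± 35.6 TPM in grna+/+ (log2 fold change 0.42, adjusted p = 0.53), so the sign of its difference was opposite to that of fli1a. In grna+/+ fish fli1b spread from 37.1 TPM in replicate 2 to 106 TPM in replicate 1. gabpa, which is used in nearly all cells, had a log2 fold change of 0.03 (adjusted p = 0.939), and etv2, an early endothelial factor, one of -0.33 (adjusted p = 0.608).

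Vessel cells also use ETS factors. Of 17 endothelial genes tested, 1 fell and none rose, 14 had a log2 fold change below 0, and the median was -0.41. That median was nearer 0 with library weights (-0.12, 12 of 17 below 0) and when grna-/- replicate 3 (-0.19) or grna+/+ replicate 1 (-0.20) was left out. The one that fell was stab2, a scavenger receptor of sinusoidal and venous endothelium, at 5.30 ± 2.40 TPM in grna-/-, against 19.6 ± 3.75 TPM in grna+/+ (limma log2 fold change -1.76, adjusted p = 0.041). Next came cldn5b, a tight junction gene of endothelium, at 2.24 ± 0.384 TPM in grna-/-, against 7.97 ± 4.11 TPM in grna+/+, without overlap and without a call (adjusted p = 0.151). The summed level of the 18 endothelial genes with a row ran from 117 to 198 TPM in grna-/- and from 187 to 294 TPM in grna+/+ fish, and none of them was at 0 throughout. cdh5, the endothelial cadherin, averaged 14.6 ± 2.60 TPM in grna-/-, against 20.5 ± 5.12 TPM in grna+/+ (adjusted p = 0.332). tek went the other way, at 14.5 ± 3.24 TPM in grna-/-, against 10.3 ± 2.22 TPM in grna+/+ (limma log2 fold change 0.45, adjusted p = 0.339). esama and flt1 were also above 0, at 0.11 and 0.06. By fish, the endothelial sum was 198, 179 and 117 TPM in grna-/- replicates 1 to 3, against 294, 201 and 187 TPM in grna+/+. The part of vessel cells in the ets1 and fli1a values was not tested.

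Thrombocytes, neutrophils, T cells and macrophages were checked in the same way. Of 9 thrombocyte genes tested, 1 fell, none rose and the median was -0.19 (-0.03 without grna-/- replicate 2, -0.39 without grna-/- replicate 3), with sums of 509 to 606 TPM in grna-/- and 741 to 1035 TPM in grna+/+. The gene that fell was f13a1a.1, a coagulation factor XIII subunit, with a log2 fold change of -6.21 (limma adjusted p = 0.009), while gp1bb, of the same cells, went the other way at 1.12 without a call (adjusted p = 0.089). f13a1a.1 averaged 0.721 TPM in grna-/-, against 178 TPM in grna+/+, and so weighs on the thrombocyte sums. So do rap1b (177 against 234 TPM) and fermt3b (70.3 against 115 TPM), neither called. Of the 9 genes, 3 were above 0 and 6 below. Among them itga2b, mpl and nfe2 had log2 fold changes of -0.08, 0.18 and 0.05. Of 9 neutrophil genes tested none was called, all 9 were below 0 and the median was -0.73. Without grna-/- replicate 2 the median was -0.53 with 8 of 9 below 0, and without grna-/- replicate 1 it was -0.90. The 10 neutrophil genes with a row summed to 25578 to 47806 TPM in grna-/- and 47361 to 56700.0 TPM in grna+/+. Their smallest p were those of illr4 and adam8a, with log2 fold changes of -1.40 and -1.24, both without overlap and just short of a call (limma adjusted p = 0.0515 and 0.0567). Of 10 T cell genes tested none was called, 7 were below 0 and the median was -0.12, with sums of 51.8 to 70.8 TPM in grna-/- and 66.1 to 73.5 TPM in grna+/+. The T cell split was 5 above and 5 below 0 without grna+/+ replicate 1 (median -0.04), and 9 of 10 were below 0 with quantile normalization (median -0.28); the median was -0.20 without grna+/+ replicate 2 or without grna-/- replicate 3. lat, an adaptor of the T cell receptor, averaged 8.69 ± 0.712 TPM in grna-/-, against 12.9 ± 0.336 TPM in grna+/+ (adjusted p = 0.177). ccr7, a homing receptor of lymphocytes, had a log2 fold change of -0.56 (adjusted p = 0.342). Of 10 macrophage genes tested 1 fell, none rose, 6 were above 0 and 4 below, and the median was 0.17. Without grna-/- replicate 3 the median was -0.06, with 5 above 0 and 5 below. The macrophage sums were 1315 to 1936 TPM in grna-/- and 1548 to 1795 TPM in grna+/+. The gene that fell was apoeb, an apolipoprotein E gene, at 15.4 ± 4.40 TPM in grna-/-, against 319 ± 198 TPM in grna+/+ (log2 fold change -4.07, limma adjusted p = 0.0126), and spi1a, a PU.1 gene, had -0.70 without a call (adjusted p = 0.319). spi1a overlapped, at 133, 126 and 132 TPM in grna-/- replicates 1 to 3, against 132, 386 and 189 TPM in grna+/+. None of the genes with a row in these 4 lists was at 0 throughout, and their part in the ets1 and fli1a values was not tested.

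RUNX1 is required for blood stem cells to emerge and is also active in later lineages. runx1 was at 21.9, 13.5 and 19.3 TPM in grna-/- replicates 1 to 3, against 19.9, 11.3 and 14.8 TPM in grna+/+ replicates 1 to 3. The ranges overlapped, and replicate 2 was lowest in both genotypes. The mean was 18.2 ± 4.29 TPM in grna-/-, against 15.3 ± 4.31 TPM in grna+/+ (SD, n = 3 each), a difference smaller than the SD of either genotype (limma log2 fold change 0.24, 95% interval -0.34 to 0.83, adjusted p = 0.628). Leaving out grna+/+ replicate 2 gave 0.06, leaving out grna-/- replicate 1 gave 0.10, and leaving out grna-/- replicate 2 or grna+/+ replicate 1 gave 0.43 or 0.44, none called. cbfb, the gene of its partner CBFB, averaged 59.7 ± 8.61 TPM in grna-/-, against 70.2 ± 3.80 TPM in grna+/+, without overlap and without a call (adjusted p = 0.434). runx3, used in cytotoxic T cells and other leukocytes, had a log2 fold change of 0.39 (adjusted p = 0.482).

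MYB sustains the division of progenitors and declines as blood cells mature. myb had the highest mean level of the 10, above 95.1% of all rows of the table. It was at 176, 126 and 158 TPM in grna-/- replicates 1 to 3, against 179.6, 119.9 and 164 TPM in grna+/+ replicates 1 to 3. The same-numbered fish of the genotypes had nearly the same level. The means were 153 ± 25.0 TPM in grna-/-, against 155 ± 31.0 TPM in grna+/+ (SD, n = 3 each), with a limma log2 fold change of -0.004 (SE 0.19, 95% interval -0.45 to 0.44, adjusted p = 0.992). The sign of so small a value was not fixed and turned positive under 5 settings, at most to 0.13. The related cell cycle regulators mybl2a and mybl2b, B-Myb genes of dividing cells, averaged 9.24 ± 0.503 and 12.5 ± 1.57 TPM in grna-/-, against 4.47 ± 1.74 and 7.67 ± 2.09 TPM in grna+/+. Both were without overlap and neither was called (limma adjusted p = 0.146 for mybl2a and 0.214 for mybl2b). Beside them, 18 cell cycle genes were tested, none was called, all 18 had a log2 fold change above 0, and the median was 0.43. With library weights 16 were above 0, and under every other setting 17 or 18. Leaving out grna+/+ replicate 2 gave a median of 0.28, and library weights gave 0.26. The smallest p of that list were those of cdc6, a replication licensing gene, with a log2 fold change of 0.78 (adjusted p = 0.186), and dut, which encodes dUTPase, with 0.49 (adjusted p = 0.215).

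GATA2 is a zinc finger factor of stem cells, mast cells and endothelium, and zebrafish carry 2 copies, of which gata2b acts in blood-forming endothelium and gata2a in vessels. gata2a was at 31.4, 33.1 and 14.6 TPM in grna-/- replicates 1 to 3, against 18.3, 9.69 and 19.0 TPM in grna+/+ replicates 1 to 3. Replicates 1 and 2 of grna-/- stood above all grna+/+ fish, while grna-/- replicate 3 lay within the grna+/+ range. The mean was 26.4 ± 10.2 TPM in grna-/-, against 15.6 ± 5.17 TPM in grna+/+ (SD, n = 3 each), the highest ratio of means among the 8 tested genes, at 1.69. It did not pass in limma (log2 fold change 0.69, SE 0.36, 95% interval -0.13 to 1.51, adjusted p = 0.346). Its spread within a genotype was larger than that of 92.3% of genes tested. Leaving out grna-/- replicate 3 gave a log2 fold change of 1.05, and leaving out grna+/+ replicate 2 gave 0.40, neither called by limma (adjusted p = 0.203 and 0.681). Of 10 kidney tubule markers tested none was called. Their log2 fold changes were mixed in sign, 7 above 0 and 3 below, around a median of 0.36. Dropping grna-/- replicate 2 brought this median down to 0.06, with 6 markers above 0 and 4 below. Dropping grna-/- replicate 3 instead raised it to 0.60, with 9 above 0 and 1 below, so its size depended on single fish. These markers summed to 2076, 3580 and 1733 TPM in grna-/- replicates 1 to 3 and to 1913, 1909 and 1292 TPM in grna+/+. Their smallest p were those of the transporter genes slc12a3, with a log2 fold change of 1.05 and no overlap (adjusted p = 0.0776), and slc20a1a, with 0.77 (adjusted p = 0.223). The part of tubule RNA in the gata2a values was not tested.

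gata2b had the smallest spread within a genotype of the 8 tested genes. It was at 7.30, 7.37 and 7.08 TPM in grna-/- replicates 1 to 3, against 8.10, 7.55 and 8.34 TPM in grna+/+ replicates 1 to 3. Every grna-/- value lay below every grna+/+ value, but by little, and the mean of 7.25 ± 0.151 TPM in grna-/- was 90.6% of the 8.00 ± 0.407 TPM in grna+/+ (SD, n = 3 each). The gata2b levels rest on 114, 147 and 122 reads in grna-/- and 150, 124 and 157 reads in grna+/+. Neither the narrow spread nor the small difference was set against the counting error of so few reads. The limma log2 fold change was -0.12 (SE 0.16, 95% interval -0.50 to 0.25, adjusted p = 0.711). Its SD within a genotype, 0.05 on the log2 scale, was larger than that of only 0.698% of genes tested, and limma moves such a low variance toward that of other genes. The log2 ratio of gata2b to gata2a was -1.97, -2.02 and -0.95 in the grna-/- fish, against -1.08, -0.32 and -1.09 in the grna+/+ fish. These values overlapped through grna-/- replicate 3 (difference -0.81, exact two-sided permutation p = 0.3). gata1a, the erythroid GATA factor, averaged 44.6 ± 4.33 TPM in grna-/-, against 32.9 ± 10.8 TPM in grna+/+ (limma adjusted p = 0.349), and gata3, a T cell and kidney factor, had a log2 fold change of 0.23 (adjusted p = 0.602).

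Ikaros is a chromatin-binding factor of lymphoid progenitors. ikzf1 was at 74.7, 65.6 and 71.1 TPM in grna-/- replicates 1 to 3, against 98.8, 62.0 and 81.8 TPM in grna+/+ replicates 1 to 3. The grna-/- fish lay close together inside the range of the grna+/+ fish. The mean was 70.5 ± 4.57 TPM in grna-/-, against 80.9 ± 18.4 TPM in grna+/+ (SD, n = 3 each), with a limma log2 fold change of -0.17 (95% interval -0.60 to 0.26, adjusted p = 0.641). Without grna+/+ replicate 1 it was -0.02, and without grna+/+ replicate 2 it was -0.35, neither called. Of 13 B cell markers listed, 5 had a row and were tested, and none was called. Of these, 3 had a log2 fold change above 0 and 2 below, and the median was 0.23. Without grna+/+ replicate 3 the median was -0.13, with 2 above 0 and 3 below. The 5 markers summed to 193 to 279.8 TPM in grna-/- and 191 to 308 TPM in grna+/+. The smallest p of that list were those of blnk, an adaptor of the B cell receptor, with a log2 fold change of -0.21 (adjusted p = 0.495), and pax5, a B cell identity factor, with 0.36 (adjusted p = 0.508).

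Both genes below the filter were rare in the marrow. gfi1aa, a zinc finger repressor gene of the Gfi1 family, was at 1.17, 0.59 and 1.14 TPM in grna-/- replicates 1 to 3, against 0.635, 0.159 and 0.556 TPM in grna+/+ replicates 1 to 3. These levels rest on 14, 9 and 15 reads in grna-/- and 9, 2 and 8 reads in grna+/+, too few to set a size for the difference. Its copy gfi1ab was far more abundant, at 20.9 ± 2.57 TPM in grna-/-, against 18.5 ± 9.06 TPM in grna+/+ (SD, n = 3 each; limma adjusted p = 0.669). gfi1b, used in erythroid cells and thrombocytes, had a log2 fold change of 0.37 (adjusted p = 0.535). meis1a, a homeodomain cofactor gene, was at 1.63, 1.06 and 0.715 TPM in grna-/-, from 29, 24 and 14 reads, against 0.428, 1.07 and 0.514 TPM in grna+/+, from 9, 20 and 11 reads. The genotypes overlapped. Its copy meis1b was at 22.7 ± 4.28 TPM in grna-/-, against 25.8 ± 1.14 TPM in grna+/+ (limma log2 fold change -0.19, adjusted p = 0.588). The log2 ratios within both pairs overlapped between genotypes, with exact two-sided permutation p of 0.7 for gfi1aa to gfi1ab and 0.2 for meis1a to meis1b.

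Several of the genes shared an order of fish. Within grna-/-, replicate 2 was the lowest for 6 of the 8 tested genes (runx1, myb, fli1a, erg, ets1 and ikzf1), and within grna+/+, replicate 2 was the lowest for 7 of the 8 (all but ets1). ets1 was the reverse in grna+/+, where replicate 2 had its highest level. Replicate 1 was the highest of its genotype for runx1, myb, fli1a and ikzf1 in both genotypes. The median deviation of the 8 genes from the mean of their genotype, on the log2(TPM + 1) scale, was -0.28 in replicate 2 of either genotype. This order was not particular to the group. Replicate 2 also had the lowest mean level of its genotype, in both genotypes, for partner proteins, family relatives, other stem and progenitor genes and cell cycle genes. For thrombocyte and neutrophil markers grna+/+ replicate 2 had the highest mean level of its genotype on the log2 scale. In grna-/-, replicate 2 had the lowest for both lists. By summed TPM, grna+/+ replicate 2 was the lowest of its genotype for neutrophil markers, at 47361 TPM. The share of all genes with this order was not counted. Erythroid markers, which take a large share of TPM, summed to 93667 TPM in grna-/- replicate 2, the highest of the 6 fish, and to 21434 TPM in grna+/+ replicate 2, the lowest. No label says what fish of the same number share. Without both fish numbered 2, a fit chosen after the data were seen, ets1 had a log2 fold change of -0.85 (limma adjusted p = 0.11), fli1a -0.46 (adjusted p = 0.327) and gata2a 0.20 (adjusted p = 0.872).

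**Figure D4:**
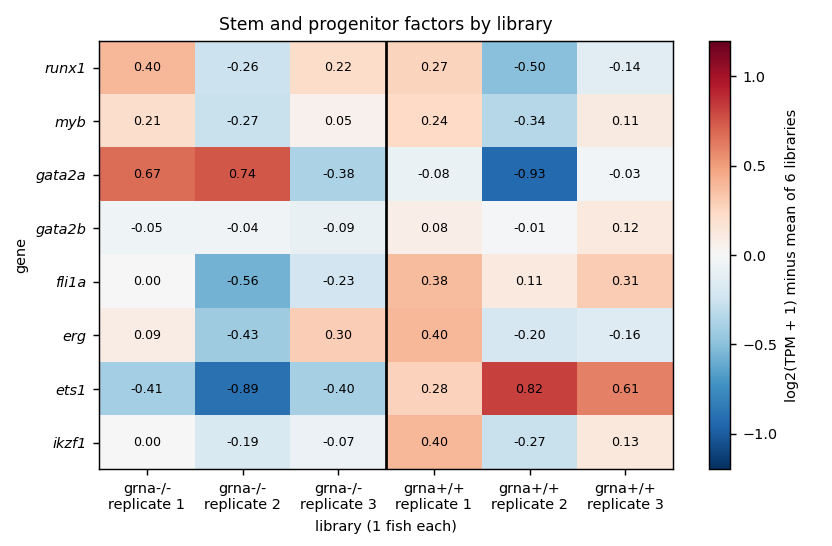
Level of the 8 tested genes in each library as log2(TPM + 1) minus the mean of the 6 libraries (colour and printed number), grna-/- left of the line and grna+/+ right of it. ets1 is negative in all grna-/- and positive in all grna+/+ fish, and runx1, myb, erg and ikzf1 are negative in replicate 2 of both genotypes.

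The proteins that bind with these factors were described from a list of 20 genes, of which 17 had a row and 14 were tested. None was called by limma, 3 had an unadjusted p under 0.05 (17.6% of all genes tested had), and 12 of 14 had a log2 fold change above 0, with a median of 0.23 against 0.07 for all genes. With quantile normalization 10 of 14 were above 0 and the median was 0.13, and without grna+/+ replicate 2 the median was also 0.13. In 5 of the 14 the grna-/- fish lay wholly above the grna+/+ fish, 35.7% against 14% of all genes tested. LMO2, which bridges TAL1 and GATA factors, gave the smallest p: lmo2 was at 71.3, 58.7 and 55.6 TPM in grna-/- replicates 1 to 3, against 50.5, 28.8 and 33.0 TPM in grna+/+ replicates 1 to 3. Its lowest grna-/- value was just above its highest grna+/+ value (limma log2 fold change 0.74, SE 0.22, adjusted p = 0.17). tal1 averaged 52.3 ± 3.08 TPM in grna-/-, against 39.5 ± 2.34 TPM in grna+/+ (SD, n = 3 each; log2 fold change 0.40, adjusted p = 0.218). Both are also expressed in red cell precursors, and of 13 erythroid genes tested 4 rose (ank1a, sox6, alas2 and epb41b), 12 had a log2 fold change above 0 and the median was 0.98. That median was 0.69 with library weights (10 of 13 above 0) and 0.81 without grna+/+ replicate 2 (11 of 13). Without grna+/+ replicate 3 it was 1.15, with all 13 above 0. The erythroid sum was 80921 to 93667 TPM in grna-/- and 21434 to 50896 TPM in grna+/+. Most of it came from the globin genes hbaa1 and ba1l, neither called. They averaged 41602 and 41940 TPM in grna-/-, against 18342 and 18811 TPM in grna+/+. The part of red cell precursors in the lmo2 and tal1 values was not tested.

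**Figure D5:**
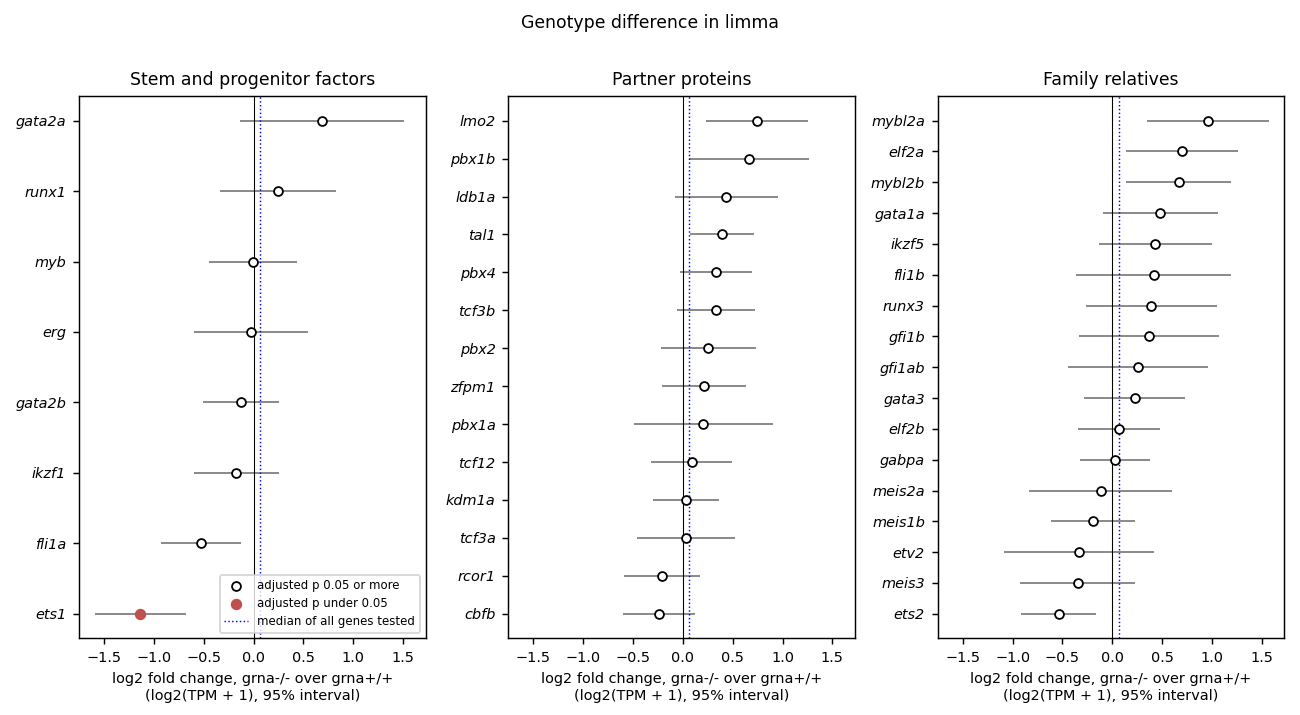
Log2 fold changes (grna-/- over grna+/+) with 95% intervals from limma for the 8 tested factors, 14 partner proteins and 17 family relatives; the dotted line is the median of all genes tested, 0.07. ets1 is the one filled point, called at an adjusted p of 0.0457, and 12 of the 14 partners lie above 0. Under some other settings, among them quantile normalization and median-of-ratios scaling, 10 of 14 did.

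Of 27 family relatives listed, 21 had a row and 17 were tested. None was called, 4 had an unadjusted limma p under 0.05, 12 had a log2 fold change above 0 and the median was 0.26. The median was 0.06 without grna+/+ replicate 2, the fish with the lowest mean level of this list. Among 30 other stem and progenitor genes, such as receptors and chromatin regulators, 26 had a row and 23 were tested. None was called, 4 had an unadjusted p under 0.05, 11 had a log2 fold change above 0 and 12 below, and the median was -0.03. That median turned positive with quantile normalization (0.02), with library weights (0.076), when grna-/- replicate 2 was left out (0.047) and when grna+/+ replicate 1 was left out (0.099). The grna-/- fish lay wholly below the grna+/+ fish in 7 of the 23, 30.4% against 10.6% of all genes tested.

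The smallest p of that list was that of notch1b, a Notch receptor gene used by vessels and blood stem cells. It was at 18.9, 14.03 and 13.4 TPM in grna-/- replicates 1 to 3, against 29.1, 28.9 and 24.8 TPM in grna+/+ replicates 1 to 3. The genotypes were well apart, and the gene did not pass (limma log2 fold change -0.81, SE 0.18, 95% interval -1.23 to -0.39, adjusted p = 0.0873). myca, a Myc gene, was at 40.9, 46.5 and 74.5 TPM in grna-/- and 77.9, 135 and 98.8 TPM in grna+/+, also without overlap (log2 fold change -0.94, adjusted p = 0.153). kita, a receptor gene of the Kit family of stem cell factor receptors, averaged 5.02 ± 0.185 TPM in grna-/-, against 4.18 ± 2.27 TPM in grna+/+ (adjusted p = 0.61), and mpl, the thrombopoietin receptor of stem cells and thrombocytes, 26.8 ± 5.40 TPM in grna-/-, against 23.5 ± 4.18 TPM in grna+/+ (adjusted p = 0.67). hlfa, a relative of mammalian HLF, which marks blood stem cells, averaged 30.0 ± 6.19 TPM in grna-/-, against 23.0 ± 4.70 TPM in grna+/+ (adjusted p = 0.39). kita, mpl and hlfa were chosen after their values were seen, and each had a log2 fold change above 0. The 7 genes of the list that lay wholly below in grna-/- were notch1b, myca, mych, mycb, hhex, csf3r and ezh2. None of them was called in the reported fit.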

How the data were processed

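The authors deposited 1 table of TPM with 1 column per library, and columns were matched to samples by title. The submitters' processing notes name Subread, featureCounts and DESeq2 1.26.0, and the builds danRer10 and GRCz10, without their roles; how TPM was computed and how strand was treated are not given in these sources. Per the labels' protocols, libraries were stranded messenger RNA libraries. A row named Total was read as the depth and left out of tests. Because TPM shares a fixed total, abundant genes that rise lower the others.

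limma 3.58.1 in R 4.3.3 was fitted on log2(TPM + 1) to all genes with a mean of at least 1 TPM, with genotype alone and a variance trend; tests were two-sided with Benjamini-Hochberg adjustment over 10750 genes. The plan named edgeR only if the table held raw counts, so it was not used. The fit was also run on simulated data with independent noise for each gene. Changes were added to some genes in the grna-/- libraries, with no other differences between libraries. That run cannot show how well the fit suits these fish. Ratios of related genes used exact permutation tests over 3 against 3 fish. "Rose" and "fell" refer to called genes alone.

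Whole reads were recovered from TPM steps: 500 of 500 low genes came out whole at a relative tolerance of 1e-06, and 35 after values were moved by up to 0.1%. The check covered low genes alone, so the larger read numbers given for ets1 and gata2b lie outside it. A factor common to all libraries of a gene cannot be seen, and reads cover counting error only.

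Replicates were separate fish. After subtracting genotype means, fish of one number correlated at 0.136, 0.153 and 0.237 across genes, each above the bound of 0.1, so a fit with the number as a block was run beside the reported one; the pairing is read from the data, since no label states it. Genes named are the 10 factors, grna, relatives set in a ratio, and in each list every called gene and the 2 with the smallest p; others were chosen after their values were seen. The 10 factors and all lists were chosen with earlier results of these data known.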

Additional observations from a re-analysis of the deposited data

How the results depend on the processing

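The count of genes called over the whole table was 124, and moved to 44 with no filter on low values, 74 with a filter at a mean of 5 TPM, 76 with no variance trend, 271 with the replicate block, 2447 with library weights and 53 without both replicates 2, a setting chosen after the data were seen. It ranged from 16 to 204 when 1 library was left out. The count among the 10 factors was 1 (ets1) and became 0 with no filter, with a filter at 5 TPM, with median-of-ratios scaling, with no variance trend and without both replicates 2, 2 with library weights, and 0 to 1 when 1 library was left out. With the replicate block it stayed at 1 (ets1, adjusted p = 0.0409), and the block changed no other call among the 10 factors and the 3 lists of related genes. Library weights also called 6 partner proteins, 4 family relatives and 7 other stem and progenitor genes; the weights ran from 0.327 for grna+/+ replicate 2 to 2.94 for grna-/- replicate 1 and 4.81 for grna+/+ replicate 3, the fish that dominated that fit. The causes of the other changes were not tested. Signs turned for myb, with log2 fold changes of 0.10 with quantile normalization and 0.016 with library weights and a range of -0.18 to 0.13 when 1 library was left out, and for erg, with 0.15 with library weights, 0.073 without both replicates 2 and a range of -0.18 to 0.18. The difference in the log2 ratio of gfi1aa to gfi1ab was 0.18 and became -0.076 with a pseudocount of 5 TPM, with a range of -0.081 to 0.35 when 1 library was left out. No other log2 fold change among the tested factors turned sign in the 16 settings. With 3 fish per genotype no ratio could pass its exact test, and the reads of gfi1aa and meis1a are too few to size a difference.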
